A study of Mus musculus with 8 samples.

Results

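The thalamic marker genes analyzed here are 9 genes, Tcf7l2, Lef1, Zic1, Zic4, Prkcd, Ramp3, Tnnt1, Plekhg1 and Synpo2. They were taken by symbol from a table of 55416 mouse genes, and each of the 9 symbols matched 1 row. The study introduced a leucine to proline change into the endogenous Ago2 gene of C57BL/6JUke mice by genome editing. Argonaute 2 is the protein that carries microRNAs to their target mRNAs, and the human form of the change causes a neurodevelopmental disorder. Poly-A RNA from the cerebral cortex was sequenced from 4 heterozygous mutants (genotype AGO2_L192P/+, here L192P) and 4 wild-type controls (WT). All 8 samples carry at least 1 unmodified Ago2 allele, no treatment was recorded, and the labels give neither age nor sex. The labels number the samples of each genotype 1 to 4 as replicates without saying that each is a separate animal, so the p-values measure the spread between these samples.

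The thalamus is the relay station of the forebrain, and its projection neurons send axons into the cortex while their cell bodies and nuclei stay in the thalamus. Tcf7l2 is a transcription factor that sets the identity of thalamic and habenular neurons after their last division, and Prkcd, Ramp3, Tnnt1, Plekhg1 and Synpo2 are used as markers of thalamic relay neurons in the adult brain. None of the 9 genes is exclusive to the thalamus, since Zic genes are also active in septum and meninges, Prkcd in part of the amygdala, and Lef1 in blood vessels of the developing brain.

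Library depth ran from 20396357 to 43575900 counts. Values below are normalized counts, which are counts divided by the DESeq2 size factor of the library. The targeted gene, Ago2, had nearly the same mRNA level in both genotypes (2083 to 2398 normalized counts, log2 fold change 0.03, DESeq2 adjusted p = 0.968), and since the allele changes 1 amino acid, that level does not check the labels. Markers of cortical excitatory neurons were abundant in every library, with a sum over 10 genes of 42236 to 47414 normalized counts in L192P and 48242 to 50327 in WT. Replicate 1 of each genotype was at 0.93 to 1.82 normalized counts of Xist and the other 6 libraries at 5185 to 7257, so the genotypes were balanced for this sex-linked gene.

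All 9 genes were detected in all 8 libraries, and the lowest raw count of any of them was 40, for Lef1. Levels of different genes were compared after dividing by exon length. That length was the union of the exons of all annotated transcripts, from 1.39 kb for Ramp3 to 11.6 kb for Zic4 and 13.1 kb for Synpo2. It can exceed the length of the mRNA present in cortex, so the order below also depends on the annotation. Per kb of annotated exon, Ramp3 was highest in WT at 302 ± 67.8 normalized counts (SD, n = 4), followed by Zic1 at 117 ± 33.6. Prkcd (52.7 ± 13.0), Tnnt1 (49.0 ± 13.9) and Plekhg1 (46.5 ± 6.81) followed on the same scale and overlapped in their WT ranges. Tcf7l2 (20.8 ± 3.59) and Synpo2 (20.2 ± 3.5) also overlapped, and Zic4 (8.08 ± 1.43) and Lef1 (6.09 ± 1.56) were lowest. The order in L192P was the same except that Tcf7l2, at 59.5 normalized counts per kb, stood above Plekhg1 at 53.9. In bulk tissue, more cells of a type and more RNA per cell cannot be told apart.

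Zic1 and Zic4 passed the test and were higher in L192P, while the other 7 did not pass. The test was the DESeq2 Wald test over all genes, with a call at a Benjamini-Hochberg adjusted p under 0.05. Across the 18627 genes tested, 1.36% were called, 0.789% as higher and 0.569% as lower in L192P. The log2 fold change was positive for 8 of the 9 genes, with a median of 0.64. Over all genes tested the median was 0.0019 and 50.6% were positive. The 9 genes were chosen with earlier results of these data known, and genes that vary together are not separate observations. This contrast is therefore a description only. An unadjusted p under 0.05 was reached by 3 of the 9, the third being Tcf7l2. The share of all genes reaching an unadjusted p under 0.05 is not given here. Counts at that level, for the 9 and for the lists below, are therefore a description only. All 4 L192P libraries were above all 4 WT libraries for Zic1 and Zic4, a pattern seen in 3.01% of the genes tested.

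**Figure D1:**
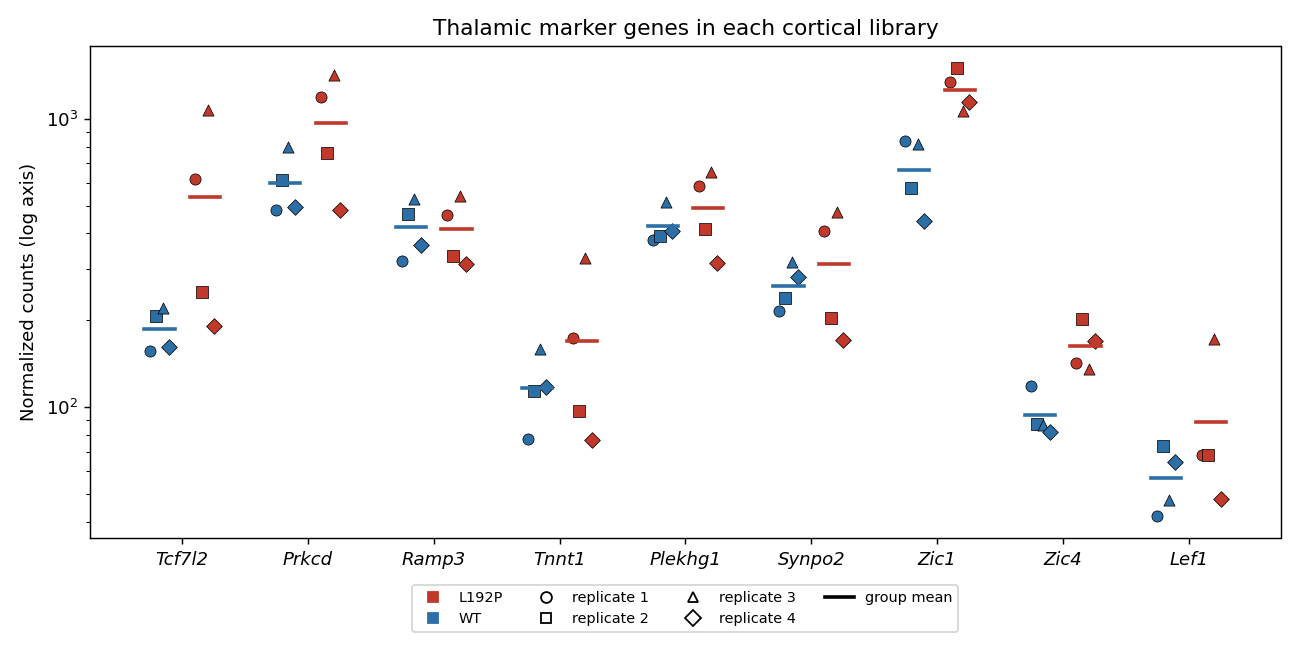
Normalized counts (log axis) of the 9 thalamic marker genes in each library, with blue for WT, red for L192P, the symbol giving the replicate number and the bar the mean of 4. Red and blue points are apart for Zic1 and Zic4. For the other genes L192P replicate 3 is the highest and L192P replicate 4 lies within or below the WT range. L192P replicate 1 lies above the WT range for these genes except Ramp3 and Lef1, where it lies within it.

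Zic1 and Zic4 encode related zinc finger transcription factors of early neural development. They lie head to head on mouse chromosome 9 (GRCm39), Zic1 on the minus strand at chr9:91240111-91247863 and Zic4 on the plus strand at chr9:91244149-91271402. The starts of their canonical transcripts are 2236 bases apart, and annotated exons of the genes share 172 bases on opposite strands. The strand setting of the read counting is not stated, so reads in those bases cannot be assigned to 1 gene with certainty.

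Zic1 was at 1345, 1495, 1065 and 1143 normalized counts in L192P replicates 1 to 4. In WT replicates 1 to 4 it was at 834, 574, 815 and 440.2. The lowest L192P library was above the highest WT library, and the fitted difference was 0.92 ± 0.23 on the log2 scale (SE, 1.90-fold, DESeq2 adjusted p = 0.0124). The exact two-sided permutation test gave p = 0.0286 for Zic1, the smallest value that 4 against 4 libraries can give. That test takes the libraries as unpaired. An exact two-sided permutation of signs within the 4 same-numbered pairs gave p = 0.125 for Zic1, Zic4 and Tcf7l2, the smallest value that 4 pairs allow. Zic4 was at 142, 203, 136 and 170.1 normalized counts in L192P replicates 1 to 4, and at 118, 87.6, 86.9 and 81.9 in WT. Again the genotypes did not overlap, with a log2 fold change of 0.79 ± 0.18 (1.73-fold, DESeq2 adjusted p = 0.00345) and an exact two-sided permutation p of 0.0286. WT replicate 1 was the highest WT library for both genes, and L192P replicate 2 was the highest of all 8 for both.

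The edgeR quasi-likelihood test, which called 0.314% of all genes, kept Zic1 (adjusted p = 0.0482) and not Zic4 (adjusted p = 0.0823). Without L192P replicate 2 neither gene passed DESeq2, with log2 fold changes of 0.83 for Zic1 (adjusted p = 0.109) and 0.67 for Zic4 (adjusted p = 0.0713). Zic1 also missed the threshold without L192P replicate 1 (adjusted p = 0.0644) or WT replicate 2 (adjusted p = 0.132).

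The windows from 250 bases before to 50 bases after the canonical start are shown for Zic1 and Zic4, because both genes moved together, and for Tcf7l2, because its fold change was the largest of the 9. They were read 5′ to 3′ on the strand of each gene, from chr9:91247772-91248071 on the minus strand, chr9:91249807-91250106 on the plus strand and chr19:55729938-55730237 on the plus strand of GRCm39. Capitals mark a match to the TCF/LEF motif.
Zic1: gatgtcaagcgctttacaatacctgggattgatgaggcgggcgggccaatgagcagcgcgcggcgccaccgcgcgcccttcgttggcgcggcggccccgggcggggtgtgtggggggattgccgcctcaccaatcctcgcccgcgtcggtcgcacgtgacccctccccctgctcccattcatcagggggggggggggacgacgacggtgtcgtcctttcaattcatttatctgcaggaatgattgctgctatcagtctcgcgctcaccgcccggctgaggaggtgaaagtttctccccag
Zic4: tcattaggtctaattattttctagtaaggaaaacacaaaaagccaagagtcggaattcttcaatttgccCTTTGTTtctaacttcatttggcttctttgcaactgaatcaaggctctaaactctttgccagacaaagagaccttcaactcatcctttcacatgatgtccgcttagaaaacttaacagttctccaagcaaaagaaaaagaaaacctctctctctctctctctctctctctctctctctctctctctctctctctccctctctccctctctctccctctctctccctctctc
Tcf7l2: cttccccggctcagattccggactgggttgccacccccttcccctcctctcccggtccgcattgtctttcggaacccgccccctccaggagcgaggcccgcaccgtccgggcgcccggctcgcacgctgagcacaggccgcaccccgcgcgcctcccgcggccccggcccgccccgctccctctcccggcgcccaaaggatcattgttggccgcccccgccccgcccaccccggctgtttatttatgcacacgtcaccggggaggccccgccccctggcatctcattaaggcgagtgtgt

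The Zic1 window was 65.3% G and C with 31 CpG, and the Zic4 window 41.7% with 2 CpG, so the neighbours differ in base content. The Tcf7l2 window was the richest of the 9 in G and C, at 72.3% with 33 CpG. The TCF/LEF motif searched on both strands was CTTTG with A or T at each of the next 2 positions. The only match among the 9 windows was the CTTTGTT of Zic4, at positions -181 to -175 from its start, and 13.2% of the 15060 promoters of tested protein-coding genes hold such a match. The Zic letters CCTGCTG were found on the minus strand of the Lef1 window, at positions -40 to -34 from the start, and in 10.2% of the same promoters. A match of these letters is a description of the window and not evidence of binding.

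Tcf7l2 (chr19:55730188-55922091, plus strand) and Lef1 (chr3:130903919-131018005, plus strand) encode transcription factors of the TCF/LEF family, which bind DNA as partners of beta-catenin in Wnt signalling. Tcf7l2 was at 620.3, 251, 1070.0 and 190.5 normalized counts in L192P replicates 1 to 4, and at 157, 207, 221 and 162 in WT. L192P replicates 1 and 3 were far above every other library, L192P replicate 2 was slightly above the highest WT library, and L192P replicate 4 lay inside the WT range. The fold change was the largest of the 9, 1.52 ± 0.56 on the log2 scale, with a 95% interval of 0.42 to 2.61, but it did not pass (DESeq2 p = 0.00693, adjusted p = 0.204; exact two-sided permutation p = 0.0857).

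Single libraries set the size of the Tcf7l2 difference. Without L192P replicate 3 the log2 fold change was 0.93 ± 0.46 (DESeq2 adjusted p = 0.625). Without L192P replicate 4 it was 1.80 and passed (DESeq2 adjusted p = 0.0404). Across its 19 alternative analyses the value ran from 0.82 to 1.80 and passed only in that 1.

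Lef1 was the least abundant of the 9, at 68.2, 68.3, 172 and 47.9 normalized counts in L192P replicates 1 to 4. The WT libraries were at 41.9, 73.4, 47.8 and 64.4. Only L192P replicate 3 was outside the WT range on the high side, and the other 3 L192P libraries were within it. The log2 fold change was 0.64 ± 0.34 (DESeq2 adjusted p = 0.562; exact two-sided permutation p = 0.314), and without L192P replicate 3 it was 0.11 ± 0.28.

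Prkcd (chr14:30317307-30349238, minus strand) encodes the delta isoform of protein kinase C. It was at 1191, 762, 1416 and 483 normalized counts in L192P replicates 1 to 4, and at 482, 614, 801 and 494 in WT. L192P replicates 1 and 3 were again the highest, and the other L192P libraries were within the WT range. The log2 fold change of 0.69 ± 0.37 did not pass (95% interval -0.04 to 1.42; DESeq2 adjusted p = 0.574).

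Ramp3 (chr11:6608511-6627475, plus strand) encodes an accessory protein that changes the ligand preference of calcitonin-family receptors. Its L192P replicates 1 to 4 were at 465, 335, 541 and 313 normalized counts and its WT replicates at 321, 468, 527 and 365. The genotypes overlapped almost completely, and the log2 fold change was -0.02 ± 0.18 with a 95% interval of -0.38 to 0.33 (DESeq2 adjusted p = 0.994). The median of the 9, 0.64, lies outside that interval.

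Tnnt1, Plekhg1 and Synpo2 have structural or cytoskeletal roles. Tnnt1 (chr7:4507567-4519381, minus strand) encodes the slow skeletal muscle form of troponin T. It was at 174, 96.7, 329 and 76.7 normalized counts in L192P replicates 1 to 4 and at 77.4, 114, 159 and 117 in WT. L192P replicates 1 and 3 were above every WT library, while L192P replicate 4 was the lowest of all 8. The log2 fold change of 0.53 ± 0.51 (DESeq2 adjusted p = 0.866) became -0.00083 without L192P replicate 3.

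Plekhg1 (chr10:3690254-3917303, plus strand) encodes a guanine nucleotide exchange factor with a pleckstrin homology domain. L192P replicates 1 to 4 were at 582, 413, 653 and 316 normalized counts, and WT replicates at 379.7, 391, 515 and 407. The log2 fold change was 0.22 ± 0.18 (DESeq2 adjusted p = 0.828). Synpo2 (chr3:122870168-123029798, minus strand) encodes an actin-bundling protein. It was at 407, 204, 474 and 171 normalized counts in L192P replicates 1 to 4 and at 216, 238, 318 and 283 in WT, with a log2 fold change of 0.25 ± 0.37 (DESeq2 adjusted p = 0.940). For both genes L192P replicates 1 and 3 lay above all WT libraries, L192P replicate 4 lay below all of them, as L192P replicate 2 did for Synpo2, and the genotype means differed by less than this spread.

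Read library by library, the mutants did not form 1 group. L192P replicate 3 was above all 4 WT libraries for 9 of the 9 genes and L192P replicate 1 for 7 of 9. L192P replicate 2 was above them for 3 of 9 (Tcf7l2, Zic1 and Zic4), and L192P replicate 4 for 2 of 9 (Zic1 and Zic4). L192P replicate 3 was the highest library for the 7 genes other than the Zic pair, and L192P replicate 4 was the lowest for 4 of them (Ramp3, Tnnt1, Plekhg1 and Synpo2). Those 7 genes had a median log2 fold change of 0.53.

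The replicate numbers give a second reading, since libraries with the same number deviated together. In replicate pair 1, L192P was above WT for 9 of 9 genes, with log2 ratios from 0.26 (Zic4) to 1.98 (Tcf7l2). Pair 3 was also 9 of 9, from 0.04 (Ramp3) to 2.27 (Tcf7l2). Pair 2 was 5 of 9 and pair 4 was 3 of 9, and in pair 4 the members that were higher were Tcf7l2 (log2 ratio 0.24), Zic1 (1.37) and Zic4 (1.04). The Zic pair and Tcf7l2 were thus higher in 4 of 4 pairs, and Tnnt1, Synpo2, Ramp3 and Lef1 in 2 of 4.

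**Figure D2:**
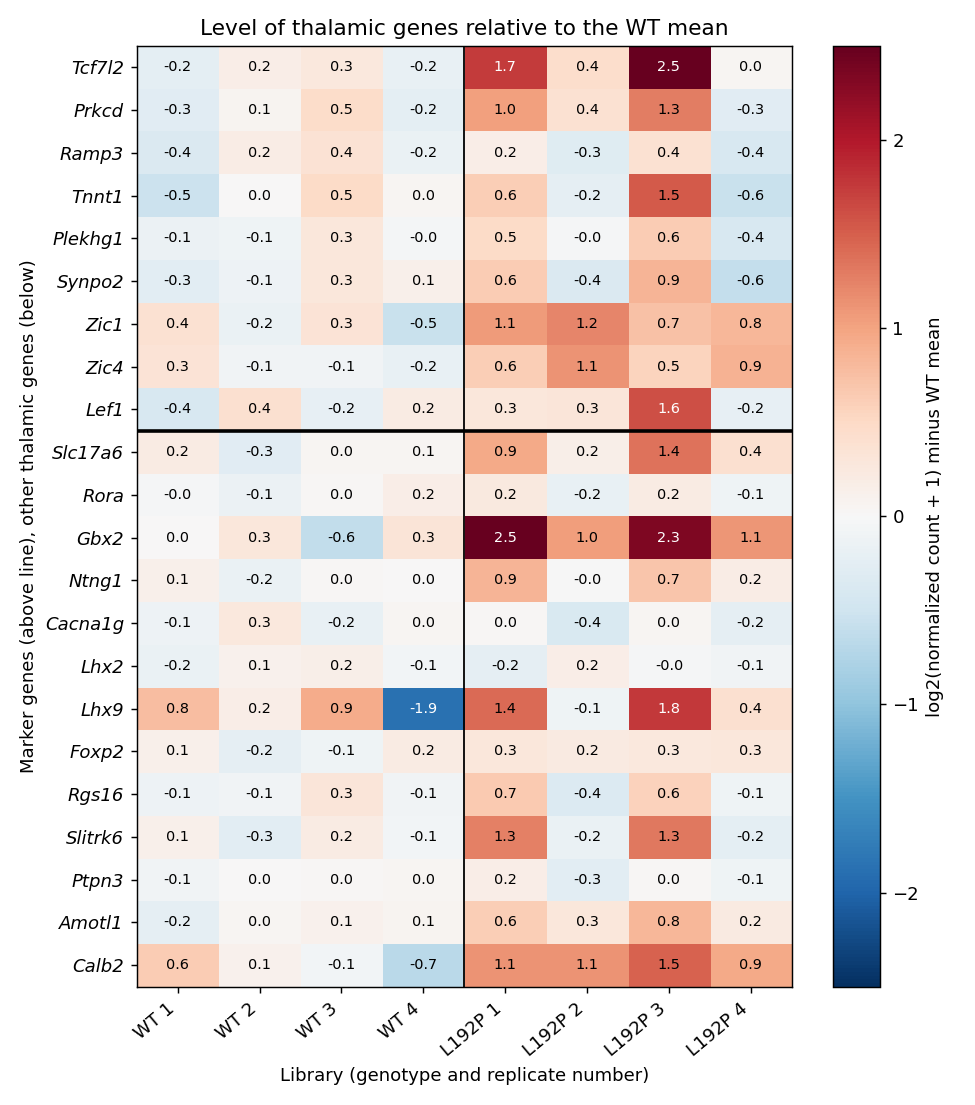
Level of each gene in each library relative to the WT mean, as log2(normalized count + 1) minus the WT mean of the gene, for the 9 marker genes (above the line) and 13 other thalamic genes (below). Columns L192P 1 and L192P 3 are red for most genes of both blocks, with 1.7 and 2.5 for Tcf7l2, whereas L192P 4 is at 0.8 or above among the marker genes for Zic1 and Zic4 only.

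The 9 genes followed 2 courses over the libraries. On log2(normalized count + 1), the 21 pairs among the 7 genes other than Zic1 and Zic4 had Pearson correlations of 0.57 (Ramp3 with Lef1) to 0.96 (Plekhg1 with Synpo2) over the 8 libraries. Zic1 correlated with Zic4 at 0.90, and the 14 pairs of either Zic gene with the other 7 ran from -0.41 (Zic4 with Ramp3) to 0.50 (Zic1 with Prkcd). These values are a description, since all genes share the same 8 libraries and the same genotype split. Without L192P replicates 1 and 3 the 21 pairs ran from -0.03 to 0.90 with a median of 0.42, so the common course of the 7 rests in large part on those libraries, while Zic1 and Zic4 remained at 0.91.

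**Figure D3:**
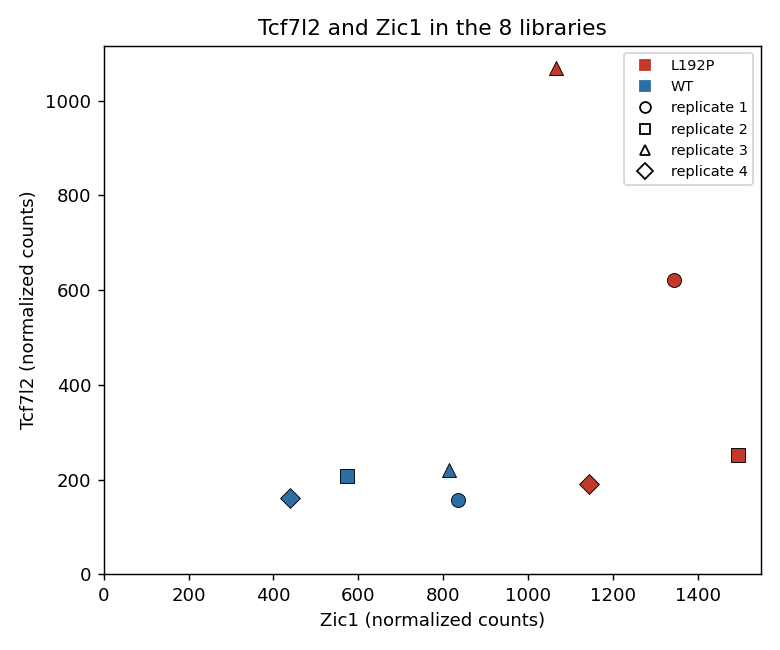
Normalized counts of Tcf7l2 (vertical) against Zic1 (horizontal) in the 8 libraries, with blue for WT and red for L192P and the symbol for the replicate number. Zic1 separates the genotypes, from 440.2 to 834 in WT and from 1065 to 1495 in L192P, while Tcf7l2 is high in L192P replicates 1 and 3 only, at 620.3 and 1070.0.

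Taking the replicate number as a block changed no call among the 8 genes that received an adjusted p in that fit (Lef1 received none), with Zic1 (adjusted p = 0.00436) and Zic4 (adjusted p = 0.00915) called by DESeq2 against 4.25% of all genes. The blocked log2 fold change of Tcf7l2 was 1.20 ± 0.51 (adjusted p = 0.208). Without L192P replicate 3, DESeq2 called 0.76% of all genes and again Zic1 (0.997 ± 0.26, adjusted p = 0.0244) and Zic4 (0.87 ± 0.20, adjusted p = 0.00378). In that fit the other 7 genes had log2 fold changes from -0.18 (Ramp3) to 0.93 (Tcf7l2), with Tnnt1, Synpo2 and Plekhg1 between -0.01 and 0.05.

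**Figure D4:**
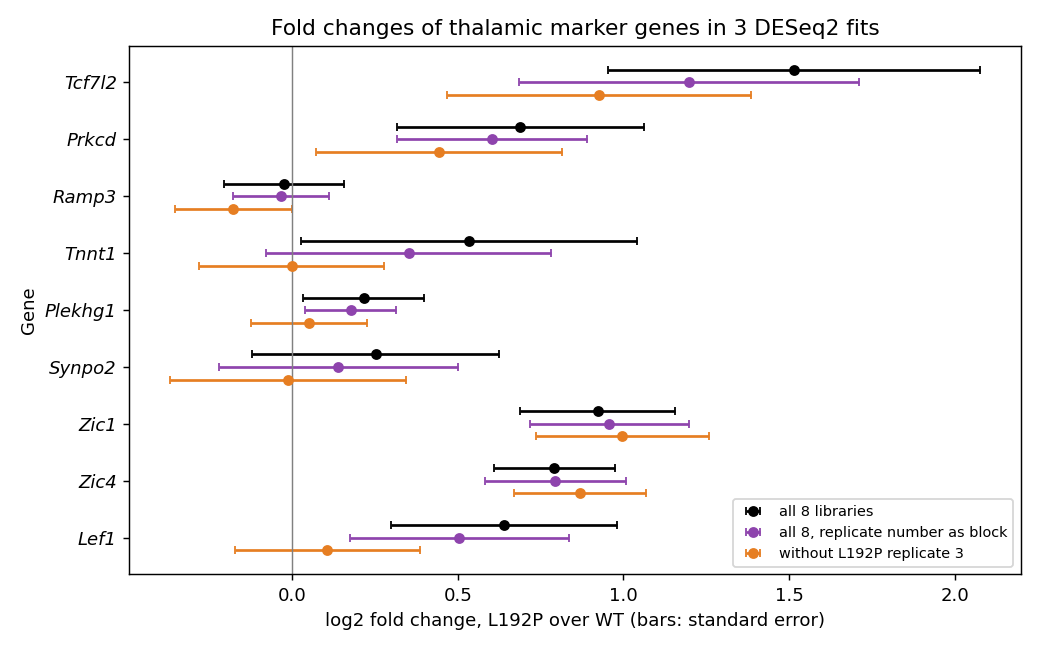
Log2 fold change of L192P over WT with its standard error for the 9 genes in 3 DESeq2 fits, with all 8 libraries (black), with the replicate number as a block (purple) and without L192P replicate 3 (orange). Zic1 and Zic4 stay between 0.79 and 0.997 in the 3 fits, whereas Lef1 goes from 0.64 to 0.11 and Tnnt1 from 0.53 to -0.00083 when L192P replicate 3 is left out.

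Among 13 other genes of thalamic nuclei, 3 were called, all higher in L192P, against 1.36% of all genes tested called in either direction. They were Gbx2, a homeobox factor of the developing thalamus, Calb2, the calcium buffer calretinin, and Amotl1, a junction and Hippo pathway scaffold. The median log2 fold change of the 13 was 0.47, and 10 of 13 were positive. This list too was chosen with earlier results of these data known, so these values are a description only. Which cells supplied the RNA of these genes was not tested. Gbx2 was at 46.7, 15.9, 40.4 and 16.8 normalized counts in L192P replicates 1 to 4 and at 7.28, 9.04, 4.35 and 9.37 in WT. The 2 genotypes did not overlap for Gbx2, and L192P replicates 1 and 3 were the highest, as for Tcf7l2 (log2 fold change 1.99 ± 0.49, DESeq2 adjusted p = 0.00821). Calb2, which cortical interneurons also use, was at 1004 to 1446 normalized counts in L192P and 327 to 808 in WT (1.11, DESeq2 adjusted p = 0.0144). Amotl1 was at 847 to 1299 and 627 to 788 (0.51, DESeq2 adjusted p = 0.0120).

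Slc17a6, the vesicular glutamate transporter of thalamic relay neurons, was at 1287, 741, 1711 and 876 normalized counts in L192P replicates 1 to 4 and at 764, 545, 688 and 692 in WT. L192P replicates 1 and 3 were the highest here too, and the genotypes overlapped through L192P replicate 2. Its log2 fold change of 0.78 ± 0.29 did not pass (DESeq2 adjusted p = 0.209) but was called with the replicate block (adjusted p = 0.0299). So was Ntng1, which encodes the axonal adhesion protein netrin-G1 (0.47, DESeq2 adjusted p = 0.124, blocked 0.00453), while Amotl1 was not called with the block (adjusted p = 0.0672) and Gbx2 received no adjusted p there.

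Foxp2 separated the genotypes without passing (883 to 919 normalized counts in L192P, 646 to 872 in WT, log2 fold change 0.26, DESeq2 adjusted p = 0.236). The remaining 7 genes were Rora, Cacna1g, Lhx2, Lhx9, Rgs16, Slitrk6 and Ptpn3, with log2 fold changes from -0.14 (Cacna1g) to 0.75 (Lhx9) and none called. Slitrk6 was at 86.9 and 89.9 normalized counts in L192P replicates 1 and 3, and at 29.4 to 41.3 in the other 6 libraries. Without L192P replicate 3 none of the 13 was called by DESeq2, and edgeR on all 8 libraries called 1 (Calb2). In the DESeq2 fit without that library, 6 of the 13 had an unadjusted p under 0.05, a count given as a description only.

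Regions and cell types next to or sharing genes with the thalamus were read in the same way. The habenula borders the thalamus and also uses Tcf7l2. Of its 9 listed genes, Pou4f1 (3.41 to 30.0 normalized counts in L192P and 1.13 to 3.51 in WT, log2 fold change 2.88) and Tac2 (0.53) were called higher, with DESeq2 adjusted p-values of 0.00921 and 0.0144. Without L192P replicate 3 the log2 fold changes were 2.55 for Pou4f1, which received no adjusted p there, and 0.55 for Tac2 (DESeq2 adjusted p = 0.0612). In that fit DESeq2 called 0 of the 9, with 2 at an unadjusted p under 0.05. edgeR on all 8 libraries called 0, with Pou4f1 not tested and Tac2 and Nr4a2 at an unadjusted p under 0.05. Nr4a2 went the other way, at 889 to 1090 normalized counts in L192P and 1094 to 1164 in WT. Its log2 fold change was -0.17 (DESeq2 adjusted p = 0.375), and 5 of the 9 habenular genes had a positive log2 fold change. Of 4 genes of prethalamus and reticular nucleus, led by Six3 and Ecel1, DESeq2 and edgeR called none, and Ecel1 alone had an unadjusted p under 0.05. Ecel1 was called higher once L192P replicate 3 was left out (log2 fold change 0.64, DESeq2 adjusted p = 0.000912). Of 10 hypothalamic genes, 7 received an adjusted p and Avp, Oxt and Otp were called higher. Their summed level was 234 to 1298 normalized counts in L192P and 121 to 260 in WT, and Pmch, Hcrt, Sim1 and Nr5a1 were at 0 in at least 1 library. Oxt (log2 fold change 4.53), Avp (4.22) and Otp (3.41) were low in every WT library, and in L192P they were lowest in replicate 2. L192P replicate 3, the highest library for 7 of the 9 marker genes, also stood apart in Pmch and Hcrt, which encode neuropeptides of the lateral hypothalamus. Pmch had 262 normalized counts in that library and 0 to 16.8 elsewhere, and Hcrt had 178 there and 0 to 12.1 elsewhere. Avp, Oxt, Otp and Trh were called higher without that library, and the part of hypothalamic RNA in the values of the 9 genes was not tested.

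Zic genes are shared with septum and meninges. Of 8 genes of septal and basal forebrain cholinergic neurons, Ngfr, the neurotrophin receptor p75, was called higher at 152, 267, 176 and 234 normalized counts in L192P replicates 1 to 4 and 85.5 to 131 in WT (log2 fold change 1.04, DESeq2 adjusted p = 9.92e-05). As for the Zic pair, L192P replicate 2 was the highest and WT replicate 1 the highest WT library. The summed level of the 8 was 1284 to 1841 in L192P and 1052 to 1368 in WT, none was at 0, and without L192P replicate 3 Slc5a7, Lhx8 and Gbx1 were called with Ngfr.

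Of 10 meningeal fibroblast genes, 5 were called higher, Slc6a13, Crabp2, Aldh1a2, Slc22a6 and Foxc1, with log2 fold changes from 0.60 to 0.81. The summed level of the 10 was 1657 to 2782 normalized counts in L192P and 1333 to 1775 in WT, and none was at 0. With the block 4 were called (Col1a2, Slc6a13, Aldh1a2 and Slc22a6), without L192P replicate 3 only Aldh1a2, and with edgeR 0, where 8 of the 10 had an unadjusted p under 0.05. List levels were also taken as the mean over the genes of log2(normalized count + 1) minus the WT mean. The meningeal list was at 0.17, 0.83, 0.97 and 0.52 in L192P replicates 1 to 4. On this measure the Zic pair was at 0.84, 1.17, 0.64 and 0.85, and the septal list at 0.42, 0.83, 0.13 and 0.76. Among the L192P libraries, replicate 3 was highest for the meningeal list and lowest for the Zic pair and the septal list. The order of the other L192P libraries was the same in each. The part of septal and meningeal RNA in the difference of Zic1 and Zic4 was not tested.

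Striatal genes went the other way. Penk, the enkephalin precursor, was lower in L192P (log2 fold change -0.51, DESeq2 adjusted p = 0.000286), at 6334 to 8814 normalized counts against 9680 to 12205 in WT. With the block, 6 of the 10 listed striatal genes were called, all lower. The 10 striatal genes summed to 37764 to 46158 normalized counts in L192P and 47630 to 57510 in WT. Of the 10 cortical excitatory genes DESeq2 and edgeR called none, 3 had an unadjusted p under 0.05 in DESeq2 and 0 of 10 a positive log2 fold change, while with the block Slc17a7, Neurod6 and Tbr1 were called lower. Libraries thus differed in markers of several neighbouring regions at once, and the part of tissue composition in the values of the 9 genes was not tested.

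**Figure D5:**
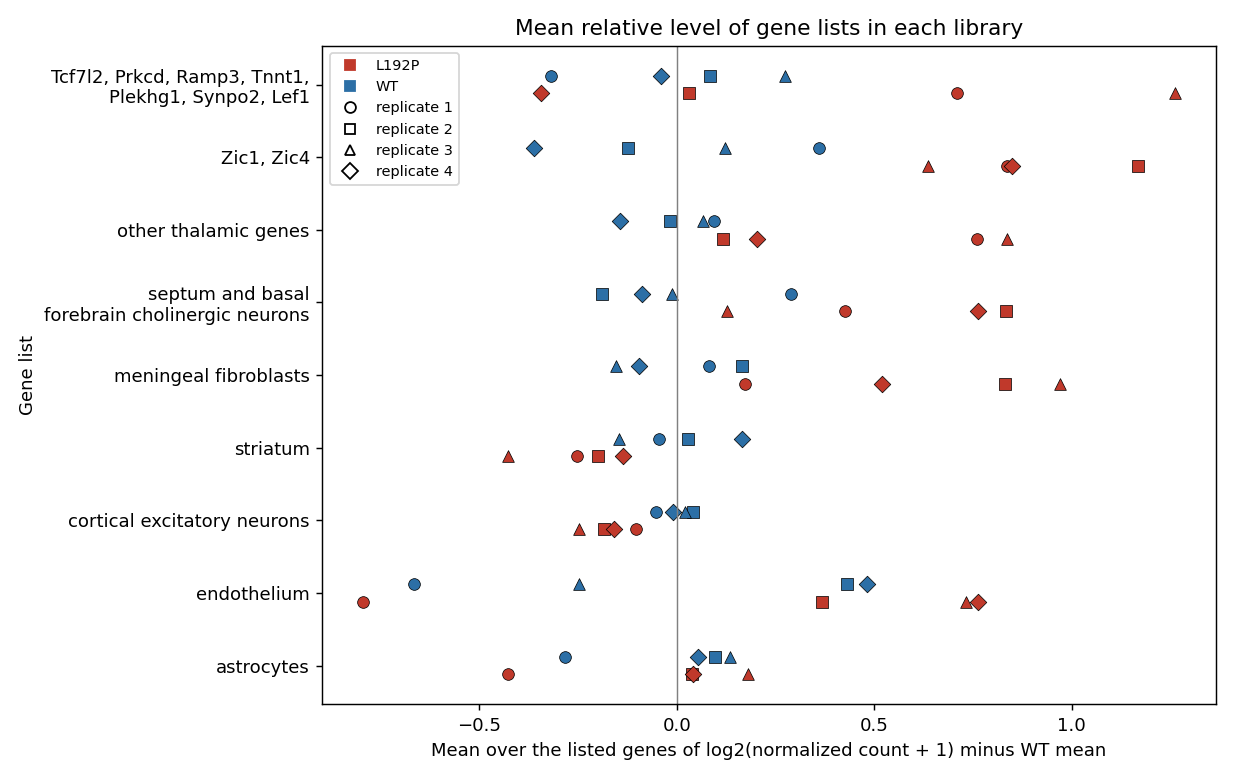
Mean over the genes of a list of log2(normalized count + 1) minus the WT mean of each gene, for each library (blue WT, red L192P, symbol for the replicate number). The 7 marker genes and the other thalamic genes are highest in L192P replicates 1 and 3 (0.71 and 1.26 for the 7), the Zic pair and the septal genes in L192P replicate 2 (1.17 and 0.83), and the striatal and cortical excitatory genes lie lower in L192P than the WT mean.

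None of the listed genes of hippocampus (led by Wfs1 and Prox1), choroid plexus (Ttr and Kl), endothelium (Slco1a4 and Flt1), mural cells (Rgs5 and Vtn), astrocytes (Slc1a2 and Slc1a3), mature oligodendrocytes (Mbp) or differentiating oligodendrocytes (Bcas1 and Gpr17) was called with DESeq2 or edgeR, and in DESeq2 1 of them, the endothelial Cdh5, had an unadjusted p under 0.05. With the block, Slco1a4 was called higher. Endothelial genes, relevant because vessels can express Lef1, summed to 547 to 1659 normalized counts in L192P and 616 to 1420 in WT, lowest in replicate 1 of each genotype. Agt, which marks astrocytes outside the telencephalon, was at 295, 279, 617 and 303 normalized counts in L192P replicates 1 to 4 and 153 to 252 in WT. L192P replicate 3 was again far above the rest, and the difference did not pass (log2 fold change 0.91, DESeq2 adjusted p = 0.159) except with the block. Slc6a11, the other and more abundant listed gene of these astrocytes, overlapped between the genotypes. It was at 2245 to 3475 normalized counts in L192P and 2131 to 2827 in WT (log2 fold change 0.10, DESeq2 adjusted p = 0.912).

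The families of the 9 genes showed which relatives moved with them. Of the other Zic genes, Zic2 was called with Zic1 and Zic4. Zic2 was at 495, 655, 503 and 437 normalized counts in L192P replicates 1 to 4 and 249 to 364 in WT (0.73 ± 0.14, DESeq2 adjusted p = 0.000155). The Zic2 genotypes did not overlap and L192P replicate 2 was again the highest. Zic5 had a log2 fold change of 0.51 and did not pass (DESeq2 adjusted p = 0.112). Without L192P replicate 3 Zic1, Zic2 and Zic4 were called, and edgeR called Zic1 and Zic2.

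In the TCF/LEF family of 4, Tcf7 (-0.17) and Tcf7l1 (0.39) were not called any more than Tcf7l2 and Lef1. Of 11 genes of Wnt pathway output, led by Ccnd1 and Axin2, DESeq2 and edgeR called none, 0 had an unadjusted p under 0.05, and Axin2, the feedback inhibitor of the pathway, was at 527 to 628 normalized counts in L192P and 464 to 603 in WT. Of 9 protein kinase C genes, led by Prkce and Prkcb, DESeq2 and edgeR called none, 3 had an unadjusted p under 0.05 in DESeq2, and with the block Prkcb and Prkcz were lower. Among 10 genes for RAMPs, their receptors and ligands, 7 received an adjusted p. Calcr, the calcitonin receptor that RAMP proteins modify, was called higher (log2 fold change 2.35 ± 0.49, DESeq2 adjusted p = 0.000675). It was at 28.8 to 39.5 normalized counts in L192P against 2.34 to 15.5 in WT. Calcr was also called without L192P replicate 3, while the replicate block and edgeR called 0 of the 10. The troponin (led by Tnnc1 and Tnnt2), Plekhg (Plekhg5 and Plekhg3) and synaptopodin (Synpo and Synpo2) families had no gene called by DESeq2 or edgeR, and 0 at an unadjusted p under 0.05.

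Genes whose course over the libraries was most like that of the 9 were ranked by Pearson correlation with the mean z-score of the 9, over 8 libraries and 13413 other genes. The closest were Chrna4 (0.96), Slc25a29 (0.93), Epb41l4a (0.93), Ythdf2 (0.93) and Gm13629 (0.93), and none of them was called. Without L192P replicates 1 and 3 Chrna4, a nicotinic acetylcholine receptor subunit, was at 0.78 and Epb41l4a at 0.56. After centring within genotype the closest were Raver2 (0.995), Ndufs3 (0.97), Rab37 (0.96), Nt5dc2 (0.96) and Fgf10 (0.96), a different set. With 8 libraries and so many genes, high values arise readily, and the ranking is a description.

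Because Argonaute 2 acts through microRNAs, the 3′ UTRs of the canonical transcripts were searched for exact matches of 7 bases to the seeds of let-7, miR-9, miR-29, miR-92 and miR-5121. The mature microRNAs that matched a marker gene are shown with the seed, bases 2 to 8, in capitals (sequences from RefSeq).
mmu-let-7a-5p: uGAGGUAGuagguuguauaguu
mmu-miR-9-5p: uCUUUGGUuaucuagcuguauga
mmu-miR-29a-3p: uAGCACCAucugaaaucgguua
mmu-miR-5121: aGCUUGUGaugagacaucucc

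At least 1 match was held by 3 of the 9 genes, and no seed matched more than 1 of the 9. The share of all UTRs holding at least 1 of these matches is not given here, so the count is a description only. The windows below show 10 bases on either side of each match, which is in capitals.
Zic1, miR-29a-3p: gttatgtaccTGGTGCTcttttgcttt
Synpo2, let-7a-5p: atggtctctgCTACCTCtgaaagggca
Synpo2, miR-9-5p: ttataaaataACCAAAGattctttctt
Prkcd, miR-5121: aaaagaagagCACAAGCtgtctgaacc

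Over 14887 UTRs, 16.7% held the miR-29 match found in Zic1, 11.6% the let-7 match and 15.5% the miR-9 match found in Synpo2, 11.2% the miR-5121 match found in Prkcd, and 8.07% the miR-92 match, which none of the 9 held. Of the called pair, Zic1 thus held 1 match in a UTR of 3511 bases and Zic4 none in 2814 bases, and Tcf7l2 held none in 1802 bases. A match is a description of the letters and does not show that the site is used in cortex.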

How the data were processed

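Polyadenylated RNA of 4 L192P and 4 WT cortices was sequenced. The authors mapped reads to GRCm39 with STAR and deposited the raw counts that featureCounts 1.5.1 gave per gene. Strand setting and annotation release are not given in the sources used here. The deposited normalized signal equals counts divided by DESeq2 size factors (largest difference 3.5e-10) and was used only in limma-trend.

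The deposited counts were tested with DESeq2 1.42.0 (R 4.3.3, genotype as the only term, adjusted p under 0.05, no fold threshold, no shrinkage), which is the tool and threshold of the study. Alternatives were edgeR 4.0.16, limma 3.58.1 (voom, and trend on log2(value + 1)), other size factors and filters, a replicate block, and leaving out libraries. The program was tested on simulated data. Libraries of 1 genotype differed by a chi-square of 5.52 to 22.6 per degree of freedom, more than a repeated deposit of 1 library would give, and each was used as a replicate because the labels number it as one. Deviations from the group mean over 13422 genes correlated between same-numbered libraries at 0.63, 0.38, 0.23 and 0.33 for replicates 1 to 4, and between others at -0.38 to 0.14. The numbers were therefore used as pairs in the block fits and the permutation of signs, while the main fit took the libraries as unpaired. Replicate 1, with the highest correlation, was also the pair at 0.93 to 1.82 normalized counts of Xist. The part of sex in that correlation was not tested.

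The 9 genes, the 25 lists and the tests were chosen with earlier results of these data known. Genes were named by rule, as all 9 members and all 13 other thalamic genes, and of each further list the called genes, otherwise the 2 most abundant. Some genes that this rule selects are not reported here. A few more are named for calls in other fits, for their level in a library or for a marker at 0, chosen after their values were seen. For likeness a gene needed 50 normalized counts on average. Positions, exon lengths, promoters and UTRs came from GENCODE M39, which holds 98.8% of the gene identifiers. Opposite-strand exons overlap all members but Plekhg1 and Synpo2, and Synpo2 shares exon bases with a gene on its own strand.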

Additional observations from a re-analysis of the deposited data

Results flagged for a closer look

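In each genotype, the highest and the lowest of the 4 libraries were checked for a wide gap to the next, for the 9 marker genes and the 13 other thalamic genes. Of 44 groups 3 stood out, and chance alone gives about 2.2 at 1 in 20. Lef1 in L192P replicate 3 had 172 normalized counts, and the remaining L192P libraries had 47.9 to 68.3 (the gap was 0.836 of the range). Zic4 in WT replicate 1 had 118, and the remaining WT libraries 81.9 to 87.6 (0.846 of the range). Rgs16, a regulator of G protein signalling, had 373 in WT replicate 3 and 275 to 283 in the remaining WT libraries (0.915 of the range).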

How the results depend on the processing

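Of the 9 marker genes 2 were called, and 1 was called by edgeR, limma-voom and limma-trend (Zic1 in each) and with the replicate block without L192P replicate 3 (Zic1), an analysis added after seeing the data. Leaving out 1 library gave 0 (L192P replicate 2) to 3 (L192P replicate 4). The replicate block on all libraries changed no call among the 8 that received an adjusted p (not Lef1). Of the other thalamic genes 3 were called, and 1 by edgeR, limma-voom and limma-trend (Calb2), 1 without both replicate 1 libraries (Calb2), 1 with the block without L192P replicate 3 (Slc17a6), and 0 to 4 with 1 library left out (0 without L192P replicate 3). The lists of regions, cell types and families beyond these had 15 calls, 4 with edgeR, 23 with the replicate block and 14 without L192P replicate 3. Over all genes, DESeq2 called 253, edgeR 53, the replicate block 533 and the fit without L192P replicate 3 126. Ramp3 turned positive with total-count size factors (0.0032 on the log2 scale) and in 4 of the 8 fits that dropped a library (L192P replicates 2 and 4, WT replicates 2 and 3). With 1 library left out Ramp3 ranged from -0.18 to 0.10, Tnnt1 from -0.00083 to 0.78 and Synpo2 from -0.0127 to 0.46, the lowest each without L192P replicate 3, and Synpo2 was -0.0120 with the block on the same 7 libraries. Zic1 passed in 16 of 19 alternatives and Zic4 in 14 of 19, with adjusted p-values of 8.05e-05 to 0.132 and 0.000356 to 0.158, always higher in L192P. Depth limits Lef1, Tnnt1 and Zic4 most, with lowest raw counts of 40, 64 and 70. The causes of these changes were not tested.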
